A study of Macaca mulatta with 7 samples.

Results

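The genes that encode voltage-gated sodium and calcium channels were followed across the cell classes of the macaque spinal cord, before and after spinal cord injury. They were taken by symbol from the feature lists of the deposited matrices: every symbol that began with CACN, and every symbol made of SCN, a number and A or B. This gave 38 genes of the 28966 symbols measured, 13 of them SCN and 25 CACN. The study profiled single nuclei of the spinal cord of female rhesus monkeys (Macaca mulatta), with 1 library for each of 7 groups. The 3 intact groups were cervical, thoracic and lumbar cord, which came from 1 uninjured animal aged 5 years. The 4 injured groups were lumbar cord, below a complete transection at the thoracic level T9, taken at 7 days post-injury (dpi, age 7 years), 14 dpi (age 7), 30 dpi (age 6) and 6 months post-injury (mpi, age 6), each from another animal. With 1 library and 1 animal a group, injury, animal, age and library cannot be told apart, so injured and intact cord were compared as values with counting intervals and no test.

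A voltage-gated sodium channel opens when the membrane depolarizes and carries the rising phase of the action potential. Its pore is a single alpha subunit (such as SCN1A, SCN2A and SCN8A), and small beta subunits (such as SCN2B, SCN3B and SCN4B) span the membrane beside it, change its gating and take part in cell adhesion. Voltage-gated calcium channels turn depolarization into calcium entry: the L-type pores (CACNA1C, CACNA1D, CACNA1F, CACNA1S) link it to contraction, pacemaking and gene expression, the P/Q-, N- and R-type pores (CACNA1A, CACNA1B, CACNA1E) trigger transmitter release at terminals, and the T-type pores (CACNA1G, CACNA1H, CACNA1I) open near rest. Most calcium channel pores are carried to the membrane with an extracellular alpha2delta subunit (CACNA2D genes, of which CACNA2D1 and CACNA2D2 encode the binding sites of gabapentin) and a cytoplasmic beta subunit (CACNB genes). The CACNG genes are named gamma subunits, but CACNG2, CACNG3, CACNG5, CACNG7 and CACNG8 mainly serve AMPA receptors, while CACNG1 and CACNG6 belong to muscle-type channels. In the spinal cord these channels set the firing of motor and sensory neurons, and precursors of oligodendrocytes are the glia best known to carry voltage-gated sodium channels.

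The files held 69332 barcodes with 777183139 unique molecular identifiers (UMIs), 45079131 to 150987900 a library, and libraries shared at most 33 barcodes. After filtering, 63730 nuclei were kept. Clusters were made with the 38 genes left out and named from marker genes, which gave 9959 neuron-like, 21878 oligodendrocyte-like, 3980 OPC-like (oligodendrocyte precursor), 3904 astrocyte-like and 17710 microglia-like nuclei. A further 5290 nuclei stayed unnamed, among them 17.2% of the 30 dpi library and 25.1% of the 6 mpi library. Astrocyte-like nuclei were few after injury, with 97, 252, 142 and 109 nuclei at 7, 14 and 30 dpi and 6 mpi. Microglia-like clusters were each mostly of 1 library or of the intact animal, so a level in a microglia-like cluster and the level in its library cannot be told apart. Each level below is in CPM, the UMIs of a gene per 1000000 UMIs of its class in 1 library. Values by library are listed in the order intact cervical, intact thoracic, intact lumbar, 7 dpi, 14 dpi, 30 dpi and 6 mpi. The bounds of the 95% Poisson interval differed from the level by -6.10% and 6.395% at 1000 UMIs, and by -25.8% and 31.8% at 50 UMIs. It covers counting error only.

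Of the 38 genes, 33 reached 50 UMIs in at least 1 class of 1 library, and neuron-like nuclei held the highest mean level for 23 of them. For 15 of those 23 the neuron-like libraries did not overlap with the libraries of the next class. The same counts over all genes are not given here, so these counts do not set channel genes apart from other genes. By mean level astrocyte-like nuclei were highest for 5 genes (CACNA2D3, CACNB1, CACNB2, SCN4B and SCN9A), microglia-like nuclei for 3 (CACNB4 and CACNA1F among them), OPC-like nuclei for 2 (CACNA1A and CACNG8) and oligodendrocyte-like nuclei for 0. For CACNA1A, CACNA2D3, CACNB4, SCN4B and SCN9A the libraries of the highest and the next class overlapped. SCN9A was higher in OPC-like than in astrocyte-like nuclei in all 3 intact libraries and at 14 dpi. The 5 genes below 50 UMIs were CACNA1S, the pore of skeletal muscle, with 96 UMIs over all classes, the muscle-type CACNG1 with 32 and CACNG6 with 141, and SCN10A and SCN11A, the tetrodotoxin-resistant channels of peripheral sensory neurons, with 65 and 140. In no class of any library did these 5 exceed 26 UMIs. The limit of 50 UMIs was most easily reached in neuron-like nuclei, which held 355755422 UMIs, beside 28777347 in OPC-like and 33529207 in astrocyte-like nuclei. CACNA1H and SCN4A passed it through neuron-like nuclei alone, which held 2008 of their 2032 and 891 of their 915 UMIs. So did CACNA1G (24906 of 25034 UMIs), CACNG3 (27412 of 27614), CACNG5 (3117 of 3211) and CACNA2D4 (914 of 1167). A gene that passed in this way could hardly be highest in another class. The limit itself thus favoured neuron-like nuclei in the counts of 23 and 15.

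**Figure D1:**
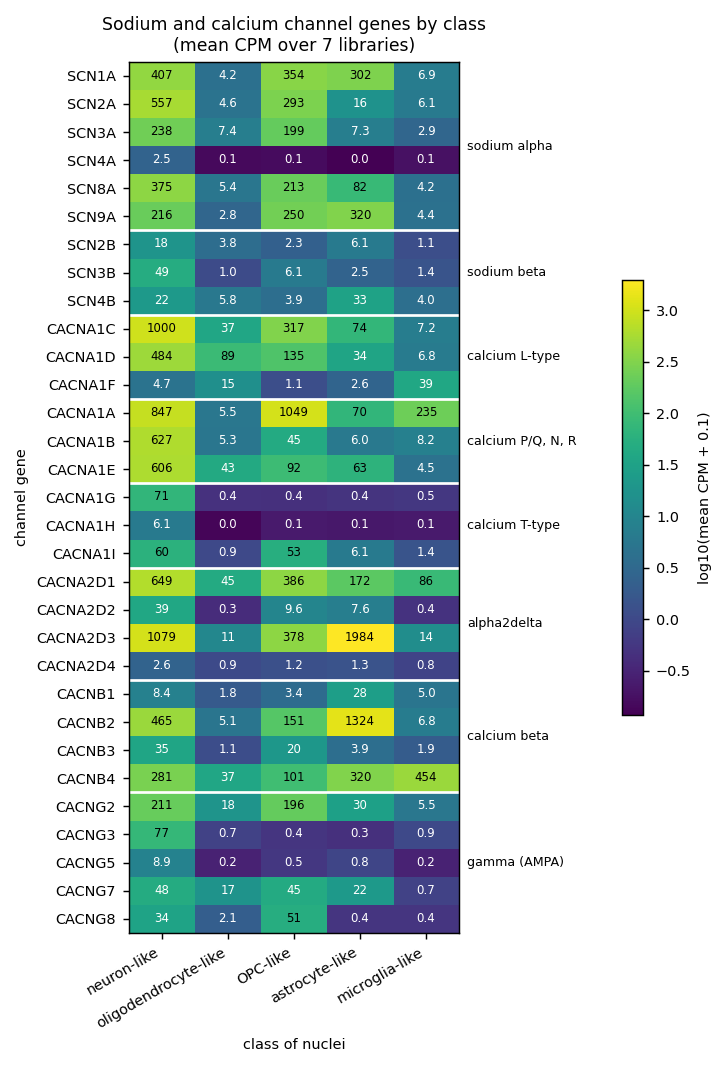
Mean level over the 7 libraries (CPM, colour on a log10 scale) of 31 of the 33 genes with 50 or more UMIs in a class of a library, by class of nuclei and by role. Values are comparable along a row and not between rows, since they were not corrected for gene length. The row of CACNA1A shows 847 in neuron-like, 1049 in OPC-like and 235 in microglia-like nuclei, and the row of CACNA2D3 shows 1984 in astrocyte-like nuclei.

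CPM does not correct for gene length, so levels were compared between genes only per kilobase of gene span in the rhesus Mmul_10 RefSeq annotation. On that scale the highest neuron-like gene was SCN1A among sodium pores (2.49 CPM per kb), CACNA1B among P/Q-, N- and R-type pores (2.42), CACNB3 among calcium beta subunits (2.37), CACNG7 among the AMPA receptor gamma genes (1.56), CACNA1D among L-type pores (1.48), CACNA2D1 among alpha2delta subunits (1.29) and CACNA1G among T-type pores (1.04). SCN2A has no entry under its symbol in the annotation used here and no value per kilobase, so it was not ranked. Its mean neuron-like level was 557 CPM, beside 407 CPM for SCN1A. Gene span suits counts that include intronic reads, and whether these did is not given in the sources used here. The order depends on that choice: for example, CACNB3 measured 35.3 CPM over 3.92 kb of exons and CACNB2 465 CPM over 8.11 kb. The genes highest per kilobase of span lay at chr12:53132437-53296293 (SCN1A), chr15:58487-317034 (CACNA1B), chr11:48417841-48432698 (CACNB3), chr19:53667954-53698550 (CACNG7), chr2:109674575-110002123 (CACNA1D), chr3:123705871-124208914 (CACNA2D1) and chr16:46158277-46226485 (CACNA1G).

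None of these 7 genes differed 2-fold between any injured library and intact lumbar cord in neuron-like nuclei. SCN1A, a pore of fast-spiking neurons, measured 419, 377, 405, 385, 411, 395 and 461 CPM. The N-type pore CACNA1B, a main trigger of transmitter release in the dorsal horn, measured 585, 695, 578, 660.2, 676, 605 and 589 CPM. In both the injured libraries lay among or close to the intact ones. CACNB3, a cytoplasmic beta subunit, measured 31.4, 35.4, 35.2, 37.2, 31.1, 25.8 and 51.0 CPM. CACNG7, an AMPA receptor auxiliary, measured 47.1, 45.1, 48.1, 55.1, 46.0, 46.4 and 46.1 CPM. CACNA1D, an L-type pore that opens at low voltages, measured 475, 473, 480.0, 482, 497, 484 and 501 CPM. CACNB3 was highest at 6 mpi and lowest at 30 dpi, while CACNG7 and CACNA1D kept within a narrow band. CACNA2D1 measured 597, 741, 609, 619, 649.6, 665 and 662 CPM. The T-type pore CACNA1G measured 74.2, 101, 80.4, 70.2, 52.6, 55.2 and 63.5 CPM, and its 4 injured libraries all lay below the 3 intact ones, by less than 2-fold from intact lumbar cord. Outside these 7 genes the same order was seen for CACNA2D2 (44.2, 48.7, 44.8, 39.5, 33.9, 34.0 and 26.9 CPM). It was also seen for CACNG3 (83.0, 93.1, 83.0, 78.2, 68.6, 65.6 and 69.7 CPM), in both by less than 2-fold from intact lumbar cord.

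Over all 31 genes with at least 50 UMIs in every neuron-like library, the highest library was within 1.5-fold of the lowest for 19 genes, between 1.5- and 2-fold for 7 and above 2-fold for 5. The widest ranges were those of the sodium beta gene SCN4B (2.61-fold), CACNG5 (2.32-fold), the T-type pore CACNA1H (2.32-fold) and the L-type pore CACNA1F (2.13-fold). Within the 3 intact libraries, which were 1 animal, 26 of the 31 stayed within 1.5-fold.

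Injured and intact lumbar cord were then compared for each gene, which asks whether the channel set of lumbar neurons changed below the lesion. A gene was called when it differed at least 2-fold from intact lumbar cord, lay outside the range of the 3 intact libraries and had at least 50 UMIs in the library with the higher level. Of 33 channel genes tested in neuron-like nuclei, 1 was called higher at 7 dpi (SCN4A), 1 at 14 dpi and 1 at 30 dpi (CACNA2D4 both times) and 0 at 6 mpi. Of all genes tested in these nuclei, 3.74%, 3.47%, 3.38% and 3.3% were called higher at the 4 times. Of the 33, 0 were called lower at 7, 14 and 30 dpi and 1 at 6 mpi (SCN4A again), beside 3.26%, 2.98%, 2.89% and 3.17% of all genes. No channel gene was called the same way at all 4 times, where 0.25% of all genes were called higher and 0.409% lower. The median absolute log2 ratio of the 33 channel genes was 0.181, 0.129, 0.157 and 0.241 at the 4 times, and that of all genes was 0.247, 0.209, 0.207 and 0.256.

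The genes called in neurons were both expressed at low levels. SCN4A, best known as the sodium channel of skeletal muscle, measured 2.70, 2.30, 2.14, 4.49, 2.48, 2.48 and 0.689 CPM. It was above the intact range at 7 dpi, with a log2 ratio to intact lumbar cord of 1.07 [0.76, 1.37], and below it at 6 mpi, with -1.64 [-2.47, -0.90] from 16 UMIs (95% counting interval in brackets here and below). The ratio at 7 dpi was 0.92 against the mean of the 3 intact libraries and 0.82 when each nucleus was weighed the same, both below 2-fold. CACNA2D4, an alpha2delta gene best known from the retina, measured 1.64, 1.58, 1.57, 2.50, 4.07, 3.87 and 2.67 CPM, and all 4 injured libraries exceeded the 3 intact ones. Its log2 ratio was 1.38 [1.08, 1.68] at 14 dpi and 1.30 [1.00, 1.61] at 30 dpi. When each nucleus was thinned to 1000 UMIs these ratios were 3.86 and 3.47, so their size depends on the processing. The level was uneven within the class: a sub-cluster of 231 GABA/glycine nuclei, among whose leading genes was ATP8B4, measured 10.8, 8.42 and 1.23 CPM in the intact libraries (8, 8 and 2 UMIs) and 24.0, 19.7, 28.6 and 67.1 CPM in the injured ones (16, 30, 41 and 27 UMIs). Without that sub-cluster, a comparison chosen only after seeing these values, the log2 ratios at the 4 times were 0.42, 1.23, 1.05 and -0.04. CACNA2D4 shares 17087 bp with LRTM2 on the opposite strand, and whether the counting used strand is not given in the sources used here.

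**Figure D2:**
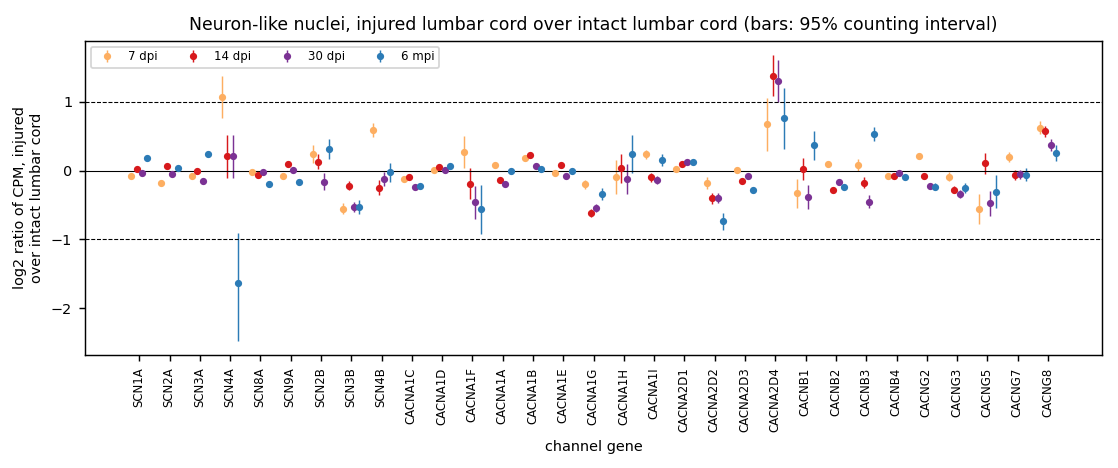
Log2 ratio of CPM in each injured lumbar library over intact lumbar cord in neuron-like nuclei for 31 of the 33 genes, with 95% counting intervals as bars and dashed lines at 2-fold. Nearly all points lie between the dashed lines; CACNA2D4 at 14 and 30 dpi and SCN4A at 7 dpi and 6 mpi lie outside them.

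The channel genes were next compared between excitatory and inhibitory neurons. A neuron-like nucleus was assigned by its UMIs of the vesicular glutamate transporters (VGLUT, 2134 nuclei) or of GABA and glycine synthesis and transport genes (4301 nuclei), and 3524 nuclei stayed unassigned. The contrast was paired within 5 animals, with the 3 intact libraries summed as 1 animal, and fitted with edgeR over 17637 genes. Of 33 channel genes, 13 were higher in VGLUT nuclei at an adjusted p under 0.05, beside 11.1% of all genes, and 6 were lower, beside 11.2%. Their median absolute log2 difference was 0.14 (0.12 over all genes), so that most differences were small, and only 3 genes, CACNA2D1 and CACNA2D3 among them, differed by 1 or more on the log2 scale. Without the block on the animal 10 of these genes did not pass: CACNA1G, CACNA1H, CACNA1I, CACNA2D2, CACNA2D4, CACNB2, CACNG8, SCN2A, SCN3B and SCN4B. Of the 10, CACNA1I, CACNA2D2, CACNA2D4, CACNG8, SCN2A and SCN3B also did not pass without 1 or more of the animals, each left out in turn. Without the block the counts were 7 and 2, and the count of lower genes was 3 without the intact animal and 2 without the 14 dpi or the 30 dpi animal.

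CACNA2D1 and CACNA2D3, which encode 2 alternative alpha2delta subunits, went in opposite directions. CACNA2D1 measured 937, 1156, 1003, 877, 1012, 1144 and 948 CPM in VGLUT nuclei and 54.3, 46.0, 68.9, 52.4, 68.0, 66.3 and 49.0 CPM in GABA/glycine nuclei. Every VGLUT value was far above every GABA/glycine value, a 17.1-fold difference (log2 difference 4.10, SE 0.055, adjusted p = 5.62e-13). CACNA2D3 measured 329.5, 423, 445, 497, 414, 448 and 372 CPM in VGLUT nuclei and 1782, 1574, 1817, 1824, 1738, 1747 and 1712 CPM in GABA/glycine nuclei. It was 4.04-fold higher in GABA/glycine nuclei (log2 difference -2.01, SE 0.044, adjusted p = 5.68e-11), with no overlap in any library. CACNA2D2 differed less (log2 difference -0.14, SE 0.044, adjusted p = 0.0346), as did CACNA2D4 (log2 difference -0.52, SE 0.140, adjusted p = 0.0195), both lower in VGLUT nuclei in 7 of 7 libraries. The differences of CACNA2D1 and CACNA2D3 held in each intact and each injured library.

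**Figure D3:**
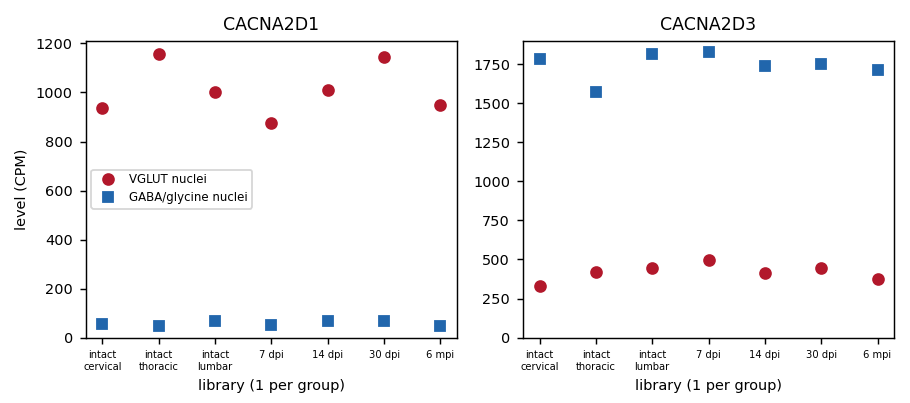
Level (CPM) of CACNA2D1 and CACNA2D3 in VGLUT nuclei (red circles) and GABA/glycine nuclei (blue squares) of each library, 1 library per group. In all 7 libraries the red points lie above the blue ones for CACNA2D1 and below them for CACNA2D3.

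Among sodium channel genes, SCN9A, the pore linked to inherited pain disorders, was higher in VGLUT nuclei by 1.59-fold (log2 difference 0.67, SE 0.040, adjusted p = 3.13e-07), and SCN3A, a pore prominent in the embryonic nervous system, by 1.21-fold (log2 difference 0.27, SE 0.036, adjusted p = 0.000203). SCN4B was also higher (log2 difference 0.48, SE 0.053, adjusted p = 4.34e-05), as was SCN2A by a small margin (log2 difference 0.11, SE 0.036, adjusted p = 0.0483), and SCN3B was lower by a small margin (log2 difference -0.12, SE 0.041, adjusted p = 0.0491). SCN1A and SCN8A, pores of fast-firing neurons, did not pass, with log2 differences of 0.07 and 0.04. Their sign was not stable: over the alternatives SCN1A ran from -0.30 to 0.14 and SCN8A from -0.32 to 0.10.

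Among calcium channel pores, all 3 that trigger transmitter release gave positive differences, but CACNA1E alone passed (log2 difference 0.48, SE 0.040, adjusted p = 4.69e-06). CACNA1A gave 0.12 and CACNA1B 0.06. The T-type pores CACNA1H (log2 difference 0.59, SE 0.114, adjusted p = 0.00294) and CACNA1G (log2 difference 0.41, SE 0.036, adjusted p = 7.10e-06) were higher in VGLUT nuclei, and CACNA1I was lower (log2 difference -0.11, SE 0.033, adjusted p = 0.0277). Of the L-type pores, CACNA1D was higher (log2 difference 0.21, SE 0.031, adjusted p = 0.000384) and CACNA1C, the pore of heart and many neurons, gave 0.04 and did not pass. CACNB2, CACNB4 and CACNG8 were higher by 0.22, 0.22 and 0.20 on the log2 scale, and CACNG3, an AMPA receptor auxiliary, was lower (log2 difference -0.54, SE 0.039, adjusted p = 1.37e-06). Among the genes that passed, SCN4B, SCN3B and CACNB2 turned their sign, to -0.26, 0.35 and -0.066, when whole sub-clusters were assigned in place of single nuclei.

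Within neuron-like nuclei, 36 sub-clusters with at least 50 nuclei showed how unevenly these genes were spread; they are described without a test, since sub-clusters share animals and libraries. Of the 36, 2 (168 and 86 nuclei) had oligodendrocyte or immune cell genes such as MBP or PTPRC among their leading genes. CACNA2D1 ran from 514 to 3446 CPM across 13 VGLUT sub-clusters (median 1157) and from 13.4 to 1771 across 15 GABA/glycine sub-clusters (median 39.7). The 1771 CPM was in 64 nuclei led by NOS1 that had the cholinergic genes SLC5A7 and CHAT among their leading genes, and the next highest GABA/glycine sub-cluster measured 412 CPM. Its highest level, 3446 CPM, was in 552 VGLUT nuclei led by NMUR2, where it ran from 2922 to 3931 over the libraries, and CACNA1H, CACNA1B and CACNA1F were highest in the same nuclei. CACNA2D3 ran from 19.7 to 649 CPM across the VGLUT sub-clusters and from 122 to 4339 across the GABA/glycine ones, of which 11 exceeded every VGLUT sub-cluster.

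SCN4B, a beta subunit of fast-firing neurons, was highest in 90 nuclei that had SLC5A7, the choline transporter of cholinergic neurons, among their leading genes. There SCN4B measured 63.2 CPM (median over sub-clusters 8.51). CACNA1A, CACNA1D and SCN2A were highest in the same 292 VGLUT nuclei led by SLC22A3, at 1994, 948 and 786 CPM. The R-type pore CACNA1E was highest in 301 VGLUT nuclei led by LMO3 (1914 CPM), SCN3A in 233 VGLUT nuclei led by TAC3 (505 CPM), CACNA1G in 126 GABA/glycine nuclei led by RORB (196 CPM) and CACNG5 in 421 GABA/glycine nuclei with PDYN among their leading genes (37.9 CPM). For CACNA1G, 343 VGLUT nuclei led by LRP2 came close, at 193 CPM. Its median was 147 CPM over VGLUT and 66.7 CPM over GABA/glycine sub-clusters. SCN9A was highest in 64 GABA/glycine nuclei led by NOS1 (686 CPM), of which only 3 libraries held 10 or more. A sub-cluster of 249 VGLUT nuclei came next for SCN9A, at 637 CPM.

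Glial levels were set beside those of 15 neuron genes as a yardstick for RNA from neurons (among them SNAP25, SYT1, NEFM and GAD1). As a percent of the neuron-like level of the same library, the median yardstick gene stood at 2.60% in oligodendrocyte-like, 9.76% in OPC-like, 3.98% in astrocyte-like and 3.54% in microglia-like nuclei. The highest yardstick genes stood at 41.6%, 62.5%, 28.1% and 54.8% (NEFM, ELAVL4, NEFM and NEFM). The yardstick genes differed widely: in OPC-like nuclei the median library stood at 49.2% for GAD1 but at 1.28% for GAD2 and 0.965% for RBFOX3. Whether glia express some of these genes was not tested, so the yardstick cannot be read as leaked RNA alone. Of 31 channel genes with enough neuronal UMIs for this comparison, those above every yardstick gene in all 7 libraries included CACNA1A and CACNG8 in OPC-like nuclei, CACNB1, CACNB2, CACNB4, SCN4B and SCN9A in astrocyte-like nuclei, and CACNA1F in microglia-like and oligodendrocyte-like nuclei. Summed over the 15 genes, the yardstick ran from 1.63 to 4.13% over the libraries in oligodendrocyte-like, 11.4 to 18.2% in OPC-like, 2.80 to 5.21% in astrocyte-like and 2.37 to 6.52% in microglia-like nuclei.

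OPC-like nuclei carried much of the neuronal channel set, and oligodendrocyte-like nuclei, the mature form of the lineage, carried little of it. In a contrast paired within the same 5 animals and fitted with edgeR over 16067 genes, 24 of 31 channel genes were higher in OPC-like nuclei and 2 were lower, beside 30.1% and 28.8% of all genes. The median log2 difference was 3.34 for the channel genes and 0.00 for all genes. Of the 24, 22 differed by at least 1 on the log2 scale, and of the 2 lower genes 1 did. The count of lower genes was 1 without the intact or the 30 dpi animal.

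The sodium pores SCN1A, SCN2A, SCN3A, SCN8A and SCN9A were all higher in OPC-like nuclei. SCN1A measured 374, 376, 406, 300.3, 281, 308 and 433 CPM in OPC-like and 4.57, 2.85, 5.73, 2.70, 6.79, 3.01 and 3.99 CPM in oligodendrocyte-like nuclei (log2 difference 6.44, SE 0.23, adjusted p = 1.03e-08). SCN2A, a pore of unmyelinated axons and initial segments, measured 301, 311, 326, 242, 269.7, 234 and 369 CPM against 2.99, 2.29, 4.27, 5.16, 7.11, 4.95 and 5.70 (log2 difference 5.86, SE 0.22, adjusted p = 1.41e-08). SCN3A measured 198, 212, 213, 182, 194, 169 and 226 CPM against 4.97, 5.83, 6.84, 9.30, 8.52, 11.6 and 5.02 (log2 difference 4.66, SE 0.23, adjusted p = 9.29e-08). In these 3 every OPC-like library exceeded every oligodendrocyte-like library, intact or injured. SCN8A, the main pore of nodes of Ranvier, measured 221, 205, 217, 202, 234, 226 and 186 CPM against 4.616, 3.70, 4.70, 5.49, 5.64, 5.98 and 7.41 (log2 difference 5.28, SE 0.14, adjusted p = 2.20e-09). SCN9A measured 251, 274, 285, 216, 279.7, 231 and 215 CPM against 2.78, 2.08, 3.003, 2.28, 3.59, 2.38 and 3.65 (log2 difference 6.48, SE 0.14, adjusted p = 8.99e-10). As a percent of the neuron-like level, the median OPC-like library stood at 89.4% for SCN1A, 50.7% for SCN2A, 82.8% for SCN3A, 56.0% for SCN8A and 114% for SCN9A, where the median yardstick gene stood at 9.76%. The highest yardstick genes in these nuclei, ELAVL4 and GAD1, stood at 62.5% and 49.2%, so that SCN2A and SCN8A lay below the highest of them, and none of the 5 sodium pores exceeded every yardstick gene in all 7 libraries. Of the sodium beta genes, SCN3B measured 6.24, 6.03, 6.47, 6.13, 7.07, 7.15 and 3.41 CPM in OPC-like against 0.803, 0.555, 1.03, 0.883, 1.22, 0.77 and 1.82 CPM in oligodendrocyte-like nuclei (log2 difference 2.72, SE 0.32, adjusted p = 4.46e-05), SCN2B was lower in OPC-like nuclei (log2 difference -0.73, SE 0.25, adjusted p = 0.0278, and adjusted p = 0.160 without the block), and SCN4B did not pass, with -0.68.

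Among the calcium pores CACNA1A, the P/Q-type pore, gave the largest difference of all channel genes. In OPC-like nuclei it measured 888, 1016, 941, 1414, 1095, 1013 and 976 CPM, 104 to 158% of the neuron-like level of the same library, and in oligodendrocyte-like nuclei 6.70, 4.33, 5.33, 5.72, 5.64, 3.45 and 7.18 CPM. The difference was 207-fold (log2 difference 7.70, SE 0.18, adjusted p = 1.28e-09). CACNA1B measured 30.3, 42.6, 26.5, 36.8, 74.2, 53.1 and 54.5 CPM in OPC-like and 6.25, 5.58, 5.77, 5.30, 6.21, 2.35 and 5.36 CPM in oligodendrocyte-like nuclei (log2 difference 3.34, SE 0.25, adjusted p = 1.90e-06). Unlike CACNA1A, CACNA1B in OPC-like nuclei stood at only 4.59 to 11.0% of its neuron-like level. CACNA1E measured 53.0, 63.0, 73.9, 122, 117, 90.4 and 123 CPM against 30.3, 38.4, 27.0, 40.9, 76.1, 55.9 and 33.7 (log2 difference 1.14, SE 0.18, adjusted p = 0.000447). The T-type pore CACNA1I measured 54.9, 54.2, 51.6, 63.3, 37.7, 47.8 and 59.1 CPM against 0.778, 0.486, 0.988, 0.837, 0.705, 0.367 and 2.17 (log2 difference 6.07, SE 0.25, adjusted p = 2.32e-08). The L-type pore CACNA1C measured 301, 329, 357, 361, 277, 309 and 282 CPM against 46.5, 42.1, 36.5, 35.3, 47.2, 18.3 and 35.8 (log2 difference 3.21, SE 0.20, adjusted p = 4.50e-07). For these 3 genes too the OPC-like value was the higher in 7 of 7 libraries. CACNA1D differed by less (log2 difference 0.66, SE 0.19, adjusted p = 0.0147, and adjusted p = 0.237 without the block) and was higher in OPC-like nuclei in 6 of 7 libraries. CACNA1F, an L-type pore best known from the retina, was the exception: it measured 1.32, 2.01, 0.627, 1.02, 1.77, 1.24 and 0 CPM in OPC-like and 13.0, 11.8, 12.4, 30.8, 9.16, 11.0 and 17.3 CPM in oligodendrocyte-like nuclei (log2 difference -3.33, SE 0.30, adjusted p = 7.64e-06). Oligodendrocyte-like nuclei were the higher in 7 of 7 libraries.

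Most auxiliary subunits were likewise higher in the precursors. CACNA2D1 measured 339, 329, 374, 445, 395, 402 and 419 CPM in OPC-like and 33.4, 38.7, 43.8, 35.1, 43.0, 53.3 and 70.5 CPM in oligodendrocyte-like nuclei (log2 difference 3.13, SE 0.15, adjusted p = 6.80e-08). CACNA2D2 measured 10.0, 10.0, 10.2, 6.64, 17.1, 8.70 and 4.55 CPM against 0.351, 0.139, 0.356, 0.325, 0.32, 0.22 and 0.456 (log2 difference 5.01, SE 0.33, adjusted p = 6.23e-07). CACNA2D3 measured 295, 347, 365, 414, 359, 361 and 502 CPM against 11.7, 10.1, 12.2, 9.06, 10.8, 9.94 and 10.0 (log2 difference 5.28, SE 0.14, adjusted p = 2.24e-09). CACNA2D1, CACNA2D2 and CACNA2D3 were higher in OPC-like nuclei in 7 of 7 libraries, and CACNA2D4, with 0.30, did not pass. CACNB2 measured 149, 147, 142, 139.9, 203, 86.4 and 189 CPM against 5.72, 2.96, 6.01, 6.04, 6.09, 3.74 and 5.02 (log2 difference 4.88, SE 0.13, adjusted p = 2.42e-09). CACNB3 measured 13.2, 14.7, 18.4, 20.9, 23.6, 14.6 and 37.5 CPM against 0.452, 0.671, 0.711, 1.21, 1.22, 0.477 and 2.85 (log2 difference 4.38, SE 0.21, adjusted p = 6.41e-08). CACNB4 measured 112, 108, 103, 104, 80.1, 93.2 and 107 CPM against 38.8, 41.9, 38.4, 27.8, 41.1, 38.5 and 32.0 (log2 difference 1.48, SE 0.14, adjusted p = 1.02e-05). Of the calcium beta genes CACNB1 was the nearest to equal, though it passed (log2 difference 0.98, SE 0.30, adjusted p = 0.0183). It did not pass without the 7 dpi, the 14 dpi or the 6 mpi animal.

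Among the AMPA receptor auxiliaries, CACNG8 measured 40.9, 41.6, 42.0, 75.6, 48.3, 61.2 and 45.5 CPM in OPC-like nuclei and 1.51, 1.53, 0.988, 3.30, 2.69, 3.15 and 1.48 CPM in oligodendrocyte-like nuclei (log2 difference 4.57, SE 0.15, adjusted p = 6.71e-09). CACNG2 measured 208, 223, 211, 223, 165, 156 and 184 CPM against 11.4, 11.7, 9.88, 37.6, 19.6, 24.4 and 10.7 (log2 difference 3.34, SE 0.27, adjusted p = 3.02e-06). CACNG7 measured 43.5, 46.0, 45.3, 55.7, 52.4, 41.0 and 34.1 CPM against 15.3, 12.7, 15.02, 19.8, 22.0, 16.1 and 20.2 (log2 difference 1.38, SE 0.13, adjusted p = 7.73e-06). CACNG2 and CACNG7 became highest in OPC-like rather than neuron-like nuclei when each nucleus was weighed the same. CACNG3 and CACNG5 did not pass (-0.03 and 1.28). The muscle-type CACNG6 passed (log2 difference 3.62, SE 0.64, adjusted p = 0.00115), but on 16 UMIs in all OPC-like and 8 in all oligodendrocyte-like nuclei, at 0, 0.639, 0.627, 1.53, 1.18, 0.311 and 0 CPM in OPC-like and 0.0251, 0, 0.079, 0.093, 0.0641, 0.0734 and 0 CPM in oligodendrocyte-like nuclei.

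**Figure D4:**
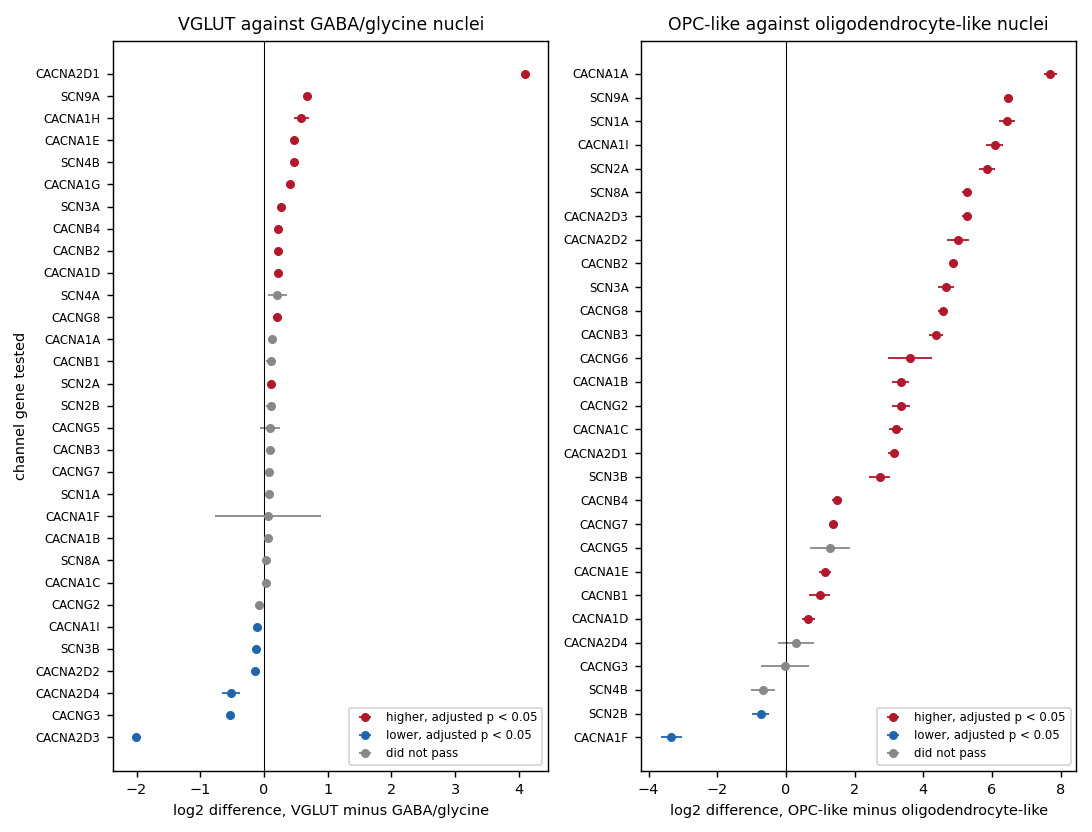
Log2 difference with its standard error for the channel genes shown in the 2 paired edgeR contrasts, VGLUT minus GABA/glycine nuclei (left, 31 genes) and OPC-like minus oligodendrocyte-like nuclei (right, 29 genes); red and blue points passed an adjusted p of 0.05. On the left CACNA2D1 (4.10) and CACNA2D3 (-2.01) stand far from the rest, and on the right 23 genes lie above 0 and pass, up to CACNA1A at 7.70.

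After injury few channel genes were called in OPC-like nuclei. Of 20 tested, 0, 1, 1 and 0 were called higher at 7, 14 and 30 dpi and 6 mpi, beside 2.81%, 1.19%, 2.19% and 1.45% of all genes, and 0 were called lower at any of the 4 times, beside 2.45%, 3.12%, 2.28% and 3.07%. CACNA1B was the gene called higher at 14 and 30 dpi, with log2 ratios to intact lumbar cord of 1.48 [1.12, 1.85] and 1.00 [0.66, 1.35]. With the 3 intact libraries averaged as the reference, the 30 dpi ratio was 0.68, below 2-fold. At 14 dpi, 12 of the 15 yardstick genes were also higher than in intact lumbar cord as a percent of the neuron-like level, 6 of them by 2-fold or more, and at 30 dpi 9 were, 1 by 2-fold or more. The yardstick summed over the 15 genes stood at 17.7% in the intact lumbar library, at 11.4% in the 14 dpi and at 17.4% in the 30 dpi library. Within it SYT1 went from 22.4% in the intact lumbar library to 1.65% at 14 dpi and 16.1% at 30 dpi. The part of the yardstick in the CACNA1B ratios was not tested. At 6 mpi CACNA1B (1.04 [0.53, 1.53], on 48 UMIs) and CACNB3 (1.03 [0.41, 1.62], on 33 UMIs) were over 2-fold but held too few UMIs for a call. Over all genes 0.0615% were called higher and 0.295% lower at all 4 times, and no channel gene was.

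Microglia-like nuclei gave the one channel gene called in the same direction at all 4 times. CACNA2D1 measured 165, 194, 153, 11.6, 36.9, 11.0 and 28.0 CPM in them. The 3 intact libraries were all above 150 CPM and the 4 injured libraries all below 37. Its log2 ratios to intact lumbar cord were -3.71 [-3.95, -3.48], -2.05 [-2.18, -1.91], -3.80 [-4.04, -3.56] and -2.45 [-2.80, -2.11]. With likely doublets kept, the ratio at 7 dpi was -2.53. Among all genes tested in all 4 libraries of these nuclei, 1.29% were called lower and 1.17% higher every time. The neuron yardstick in these nuclei stood at 4.43, 2.37 and 4.73% in the intact and 4.41, 6.52, 4.78 and 4.70% in the injured libraries. The cluster that held 96.1 to 98.5% of the intact microglia-like nuclei measured 171 CPM, and the clusters that held most of the injured ones measured 12.5, 34.3, 12.7 and 41.1 CPM, in the order of their times.

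CACNA1A went the other way in microglia-like nuclei. It measured 102, 126, 112, 654, 195, 171 and 285 CPM. The 7 dpi library stood far above the others, with a log2 ratio of 2.55 [2.44, 2.65], or 5.84-fold, and 6 mpi was also called (1.35 [1.20, 1.49]). At 14 and 30 dpi the ratios were 0.80 and 0.61. The few 7 dpi nuclei that fell into the clusters typical of 14 dpi, 30 dpi and 6 mpi (25, 26 and 33 nuclei) measured 695, 603 and 796 CPM, and 34 nuclei of 14 dpi in the 7 dpi cluster measured 158 CPM. In 2 unnamed clusters led by ITGAX and GPNMB, 29 and 28 nuclei of 7 dpi measured 447 and 192 CPM. Counting the unnamed clusters nearest to microglia into the class, also chosen after seeing the values, took the 6 mpi ratio to 0.45 and so below 2-fold.

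CACNB4 and CACNA1F, both highest by mean level in microglia-like nuclei, differed by less than 2-fold from intact lumbar cord at every time. CACNB4, a calcium beta subunit, measured 494, 471, 568, 368, 442, 367 and 466 CPM. Its 4 injured libraries all lay below the 3 intact ones. The unnamed clusters with GPNMB and ITGAX, left out of this class, measured more CACNB4 than any of these libraries (last section), so its level depends on that choice. CACNA1F measured 32.3, 39.0, 35.0, 45.8, 31.4, 33.0 and 54.8 CPM, 762% of the neuron-like level in the median library. Neither was called at any time. In all, 1 of 15, 0 of 20, 1 of 14 and 1 of 12 channel genes were called higher at the 4 times, beside 10.8%, 6.7%, 6.81% and 6.25% of all genes. The lower calls were 6, 1, 6 and 2, beside 5.26%, 4.29%, 5.61% and 3.84%. At 30 dpi the higher gene was CACNA1B, at 19.8 CPM (1.42 [1.00, 1.87]). This was 3.28% of its neuron-like level, where the median yardstick gene stood at 3.54%. Apart from CACNA2D1 the lower genes stood at 17.9 CPM or less in intact lumbar cord: CACNA1C, CACNA2D3, SCN1A and SCN8A at both 7 and 30 dpi, SCN2A at 7 dpi, CACNB2 at 30 dpi and SCN8A at 6 mpi. As a percent of the neuron-like level, 11 of the 15 yardstick genes at 7 dpi and 11 at 30 dpi also stood lower than in intact lumbar cord, 4 of them by 2-fold or more each time (SYT1 from 1.54% to 0.789 and 0.609%, for example), and their part in the lower calls was not tested. When likely doublets were kept, CACNA1C, CACNA2D3 and SCN1A at 7 dpi moved to log2 ratios of -0.19, -0.02 and -0.31, and against the mean of the 3 intact libraries SCN1A stood at -0.89 at 7 dpi and -0.88 at 30 dpi.

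By mean level over the libraries astrocyte-like nuclei were highest for 5 genes. CACNA2D3 measured 2534, 2870.2, 2148, 811, 1913, 2221 and 1388 CPM in them, and CACNB2, a calcium beta subunit, measured 1371, 655, 1567, 1242, 1628, 930.2 and 1872 CPM. SCN9A measured 119, 265, 184, 538, 248, 393 and 492 CPM. For CACNA2D3 the 7 dpi library was the lowest, for CACNB2 the intact and injured libraries were interleaved, and for SCN9A all injured libraries except 14 dpi exceeded the 3 intact ones. CACNB1 measured 20.04, 29.0, 16.5, 13.7, 21.2, 31.4 and 61.2 CPM and SCN4B 32.8, 14.9, 36.7, 72.1, 31.6, 11.4 and 28.8 CPM. CACNB1 was highest at 6 mpi and SCN4B highest at 7 dpi and lowest at 30 dpi, the first on 34 and the last on 16 UMIs. OPC-like nuclei held more SCN9A than astrocyte-like nuclei in the 3 intact libraries (251, 274 and 285 CPM) and at 14 dpi (279.7 CPM).

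SCN9A was called higher in astrocyte-like nuclei at 3 of the 4 times after injury. Its log2 ratio to intact lumbar cord was 1.55 [1.39, 1.71] at 7 dpi, 1.10 [0.95, 1.24] at 30 dpi and 1.42 [1.23, 1.61] at 6 mpi, and 0.44 at 14 dpi. Against intact thoracic cord, where it was highest of the 3 intact libraries at 265 CPM, the 14 dpi level of 248 CPM was lower. In the cluster led by ITPRID1 it measured 77.8 CPM in intact lumbar cord and 424, 164, 296 and 459 at the 4 times, each over 2-fold. In the cluster led by SLC14A1 it measured 329 CPM and then 634.5, 398, 444 and 587, all higher but below 2-fold. An annotated long non-coding RNA shares 136819 bp with SCN9A on the opposite strand.

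CACNA2D3 was called lower at 7 dpi (-1.40 [-1.52, -1.29]), and within the SLC14A1 cluster it went from 3790 CPM in intact lumbar cord to 1189 at 7 dpi. CACNB2 marked the other cluster: pooled over libraries it measured 2377 CPM in the ITPRID1 cluster and 312 CPM in the SLC14A1 cluster, and it was not called at any time. The mix of the 2 clusters differed between libraries: the SLC14A1 cluster held 59.6, 81.1 and 50.8% of the astrocyte-like nuclei in the intact and 58.8, 37.3, 67.6 and 28.4% in the injured libraries, and the part of this mix in the class levels was not tested. Of 20 channel genes tested in astrocyte-like nuclei, 1, 0, 1 and 1 were called higher at the 4 times, beside 4.12%, 2.22%, 2.92% and 1.27% of all genes, and 3, 0, 5 and 2 were called lower, beside 6.69%, 3.24%, 4.94% and 6.39%. The higher calls were all of SCN9A. CACNB1 at 6 mpi (1.90 [1.31, 2.45]) held only 34 UMIs, too few for a call. The remaining lower calls were CACNA1I at 7 dpi, 30 dpi and 6 mpi on 2 or 3 UMIs each (-2.16 [-5.23, -0.26], -2.37 [-4.68, -0.78] and -1.62 [-4.69, 0.27]), CACNA1A at 30 dpi and 6 mpi on 21 and 14 UMIs (-2.61 [-3.31, -1.99] and -1.86 [-2.74, -1.10]), CACNA1D at 7 dpi on 11 UMIs, and CACNG2, SCN3A and SCN4B at 30 dpi on 30, 6 and 16 UMIs. No channel gene was called the same way at all 4 times, beside 0.0997% of all genes higher and 0.419% lower.

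**Figure D5:**
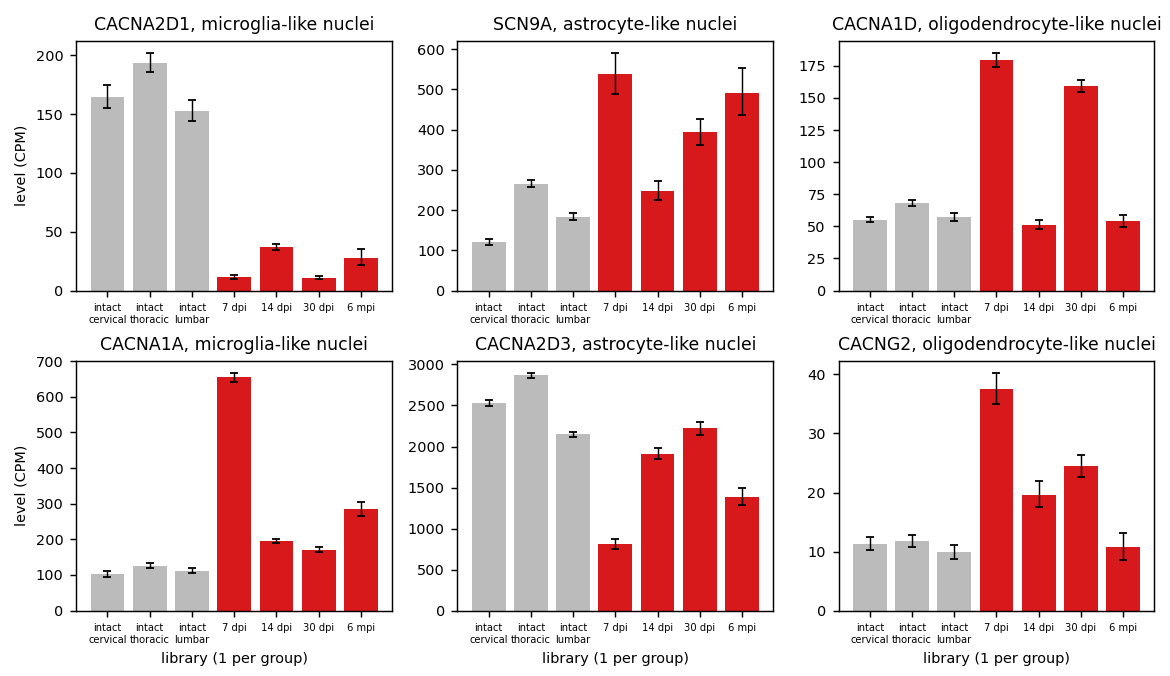
Level (CPM) by library, intact in grey and injured in red, with 95% Poisson intervals, of CACNA2D1 and CACNA1A in microglia-like, SCN9A and CACNA2D3 in astrocyte-like and CACNA1D and CACNG2 in oligodendrocyte-like nuclei. CACNA2D1 is above 150 CPM in every intact and below 37 CPM in every injured library, and CACNA1D is above the intact range at 7 and 30 dpi only.

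Oligodendrocyte-like nuclei held few channel transcripts, but several were called higher at 7 dpi and 30 dpi. Of 21 genes tested at 7 dpi, 6 were called higher (CACNA1D, CACNA1F, CACNG2, CACNG8 and SCN4B among them) and 1 lower (SCN1A), and at 30 dpi 4 of 21 were higher (CACNA1D, CACNA1E, CACNG2 and CACNG8) and 1 lower (CACNA1B). At 14 dpi 1 of 20 was higher (CACNA1E) and at 6 mpi 0 of 20, and 0 were lower at either time. Of all genes 9.44%, 3.86%, 5.12% and 6.63% were called higher and 3.17%, 3.93%, 3.53% and 3.69% lower at the 4 times, and 0.675% and 0.701% were called higher and lower every time, against no channel gene.

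CACNA1D measured 55.3, 68.1, 57.3, 179.6, 51.4, 159 and 53.9 CPM in oligodendrocyte-like nuclei. The 7 and 30 dpi libraries stood above the intact range (1.65 [1.56, 1.74] and 1.47 [1.39, 1.56]), and the 14 dpi and 6 mpi libraries below it (-0.16 and -0.09). CACNG2 measured 11.4, 11.7, 9.88, 37.6, 19.6, 24.4 and 10.7 CPM, and its ratios were 1.93 [1.72, 2.14] at 7 dpi and 1.31 [1.09, 1.52] at 30 dpi. CACNA1E measured 30.3, 38.4, 27.0, 40.9, 76.1, 55.9 and 33.7 CPM, with 1.495 [1.36, 1.63] at 14 dpi and 1.05 [0.92, 1.18] at 30 dpi. The value at 30 dpi was 0.81 against the mean of the 3 intact libraries and 0.87 when each nucleus was weighed the same, both below 2-fold. The times at which these 3 genes stood highest thus differed, 7 dpi for CACNA1D and CACNG2 and 14 dpi for CACNA1E. The clusters of these nuclei differed between intact and injured libraries. Within the injured cluster of higher UMI count CACNA1D measured 232, 75.1 and 236 CPM at 7, 14 and 30 dpi, within the other 83.7, 20.8 and 53.1, and the intact cluster with the highest level measured 138 CPM pooled over libraries. The neuron yardstick in oligodendrocyte-like nuclei stood at 2.61% in intact lumbar cord and 3.23, 4.13 and 2.87% at 7, 14 and 30 dpi, and its part in these levels was not tested.

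Proteins that work with these channels were followed from a list of 28 partner genes (intracellular FGF family members, ankyrins, release-site scaffolds, NALCN complex, small GTPases and others). Of 26 partners tested in neuron-like nuclei, 0 were called higher at any time, beside 3.74%, 3.47%, 3.38% and 3.3% of all genes at the 4 times. The lower calls were RRAD at 7 dpi and FGF11 at 6 mpi, where 3.26%, 2.98%, 2.89% and 3.17% of all genes were called lower at the 4 times. In microglia-like nuclei 4 of 17, 0 of 20, 5 of 16 and 0 of 15 partners were called lower at the 4 times, beside 5.26%, 4.29%, 5.61% and 3.84% of all genes, with FGF14, NRCAM, RIMS1 and NALCN at both 7 and 30 dpi. In OPC-like nuclei 2, 2, 3 and 2 of 21 were called lower, beside 2.45%, 3.12%, 2.28% and 3.07%, among them the calcium release channel gene RYR3 at 7, 14 and 30 dpi. In astrocyte-like nuclei 3, 1, 3 and 2 of 22 were called lower, beside 6.69%, 3.24%, 4.94% and 6.39%, and in oligodendrocyte-like nuclei 1, 1, 0 and 1 of 20, beside 3.17%, 3.93%, 3.53% and 3.69%. Higher calls were 0 in microglia-like nuclei (beside 10.8%, 6.7%, 6.81% and 6.25% of all genes) and 0 in OPC-like nuclei (beside 2.81%, 1.19%, 2.19% and 1.45%). They were 2, 1, 0 and 0 in astrocyte-like nuclei (beside 4.12%, 2.22%, 2.92% and 1.27%) and 1, 0, 3 and 0 in oligodendrocyte-like nuclei (beside 9.44%, 3.86%, 5.12% and 6.63%), FGF14 at 7 and 30 dpi among the last. None was called the same way at all 4 times in any of the 5 classes. Between VGLUT and GABA/glycine nuclei 10 of 26 were higher and 5 lower (11.1% and 11.2% of all genes), led by FGF11 (-0.90), NEDD4L (0.69), STAC (-0.49) and RIMS1 (0.31). Between OPC-like and oligodendrocyte-like nuclei 15 of 25 were higher and 5 lower (30.1% and 28.8% of all genes), led by the adhesion molecule NRCAM of nodes (9.08), the NALCN complex member UNC80 (7.74, while the pore NALCN itself was lower, at -1.33), FGF13 (7.28) and FGF14 (6.38), which bind sodium pores, while the ankyrins ANK2 (-1.33) and ANK3 (-1.55) and the ubiquitin ligase NEDD4L (-2.56) were lower.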

How the data were processed

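Single-nucleus libraries of 7 rhesus monkey spinal cord groups, 1 library each, were analysed from the UMI count matrices deposited by the authors. Per the labels and the study's methods, the authors made these raw counts with Cell Ranger 6.0.0 against Mmul_10. Whether intronic reads or strand were used in counting is not given in the sources used here, and intronic reads raise the levels of long genes in nuclei. The deposited matrices held 35432 identifiers, summed here to 28966 symbols.

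A barcode was kept (67084 in all) if it had more than 500 genes and 1000 UMIs, less than 10% of UMIs from mitochondrial genes and less than 5% from hemoglobin genes, and the 5% with the highest Scrublet scores in each library were removed. Nuclei were clustered with scanpy 1.11.5 (2000 variable genes without the channel genes, 30 components, 20 neighbours, Leiden resolution 1, seed 1) and named from marker lists. A cluster with mixed markers, or led by markers of another class, stayed unnamed. The level of a gene (CPM) was its summed UMI count in a class of a library over the total of that class. Counting error was given as the exact 95% Poisson interval of a level and, for a ratio, the exact interval of the binomial share conditional on the sum of both counts. With 1 library a group there was no test between groups: a gene was called at 2-fold or more from intact lumbar cord, outside the range of the 3 intact libraries, the library with the higher level having 50 UMIs or more (a count of 0 was set to 3 counts). A gene counted as tested where the injured or the intact lumbar library held 50 UMIs or more.

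For the contrasts within animals (VGLUT against GABA/glycine nuclei, OPC-like against oligodendrocyte-like nuclei), counts were summed over 5 animals, the 3 intact libraries being 1 animal per the study's methods, and fitted with edgeR 4.0.16 (quasi-likelihood, TMM, filterByExpr, animal as block, Benjamini-Hochberg over all genes tested, threshold 0.05, R 4.3.3). The pairing comes from the design, since both sums are of the same animal. A nucleus was VGLUT with at least 3 UMIs of SLC17A6, SLC17A7 and SLC17A8 and at least 5 times as many as of GAD1, GAD2, SLC32A1 and SLC6A5, and the reverse. Median UMIs were 37576.5 and 33710 in the 2 sets of nuclei. Standard errors were derived from the log2 difference and its p. The fits were also run on simulated counts with known differences. Those counts were drawn without differences between animals, so that run cannot check the block on the animal.

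All 38 channel genes entered the counts, and 2 of them are not reported by name here. Values of every library are printed for genes called at all 4 injured times in a class, genes past the threshold in a paired contrast with a log2 difference of 1 or more in size, genes highest outside neuron-like nuclei, and the highest gene of each role per kilobase. The channel genes, partner genes, marker lists and rules were chosen with earlier results of these data known. Alternatives covered the reference library, weighting, scaling, doublets, thinning to 1000 UMIs, the fold and UMI limits, tool (DESeq2 1.42.0), filter, block, leave-one-out and how nuclei were assigned. SCN2A had no position under its symbol in the RefSeq annotation of Mmul_10.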

Additional observations from a re-analysis of the deposited data

Results flagged for a closer look

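Several channel genes moved in opposite directions from intact lumbar cord (log2 ratios of CPM) at 2 times or in 2 classes. Each is a comparison of single libraries, and the differences between these ratios were not tested.

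SCN4A, the skeletal muscle sodium pore, was higher at 7 dpi (1.067) and lower at 6 mpi (-1.637) in neuron-like nuclei, the latter on 16 UMIs. CACNA1D was higher in oligodendrocyte-like nuclei (1.648) and lower in astrocyte-like nuclei (-1.918, on 11 UMIs) at 7 dpi. CACNA1A, the P/Q-type pore, was lower in astrocyte-like nuclei (-1.859, on 14 UMIs) and higher in microglia-like nuclei (1.346) at 6 mpi.

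At 30 dpi CACNA1B, the N-type pore, was lower in oligodendrocyte-like nuclei (-1.297) and higher in OPC-like (1.002) and microglia-like nuclei (1.425). At that time it stood at 0.388%, 8.78% and 3.28% of its neuron-like level in these 3 classes. The median yardstick gene stood higher, at 2.60%, 9.76% and 3.54%. The part of RNA from neurons in these ratios was not tested. Also at 30 dpi CACNG2, an AMPA receptor auxiliary, was higher in oligodendrocyte-like nuclei (1.306) and lower in astrocyte-like nuclei (-1.195, on 30 UMIs). The astrocyte-like values rest on 97 nuclei at 7 dpi, 142 at 30 dpi and 109 at 6 mpi, and free RNA of neurons was not tested as their source.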

How the results depend on the processing

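Of the counts over neuron-like nuclei, higher calls (3) went to 7 with a 1.5-fold limit, and lower calls (1) to 4 with that limit, 3 with 20 UMIs as the minimum, 5 after thinning, 3 in VGLUT nuclei alone and 2 in GABA/glycine nuclei alone. Shares of all genes are not given here for the alternatives, in these calls or in the paired contrasts, nor for counts past a log2 difference of 1. Such counts therefore cannot be set against a background. Calls at all 4 times went from 0 to 1 in neuron-like and from 1 to 2 in microglia-like nuclei with the 1.5-fold limit, and kept their number under the other alternatives run. With 50 UMIs required in either library (chosen after seeing the data), CACNA1B and CACNB3 in OPC-like and CACNB1 in astrocyte-like nuclei would be called higher at 6 mpi. CACNA2D4 in neuron-like nuclei had a log2 ratio of 3.86 at 14 dpi and 3.47 at 30 dpi after thinning, and SCN4A went from 0.21 to 2.10 at 14 dpi; the cause was not tested.

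In the transmitter contrast the channel genes higher in VGLUT nuclei (13) became 7 without the block on the animal and 20 with whole sub-clusters, and those lower (6) became 2 with DESeq2, 2 without the block, 3 with at least 5 transmitter UMIs, and 2 to 5 when 1 animal was left out (3 without the intact animal, 2 without 14 dpi, 2 without 30 dpi). Over all alternatives the count of lower genes ran from 2 to 9. CACNB2 (-0.066, adjusted p = 0.501 by edgeR), SCN3B (0.35, adjusted p = 0.00162) and SCN4B (-0.26, adjusted p = 0.0240) reversed with sub-clusters. In the lineage contrast the channel genes lower in OPC-like nuclei (2) became 1 without the block, and 1 to 2 when 1 animal was left out (1 without the intact animal or 30 dpi). Under every alternative, 9 of the 19 genes called in the first contrast and 21 of the 26 in the second passed. CACNA2D1 kept a log2 difference of 3.90 to 4.15 and CACNA2D3 of -2.94 to -1.88.

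Between scalings the median gene shifted by over 0.1 on the log2 scale in oligodendrocyte-like nuclei at 7 dpi (-0.129) and 6 mpi (-0.134) and in microglia-like nuclei at 6 mpi (-0.103). With 1 library a group, no alternative separates injury from animal, age or library. Several astrocyte-like calls rest on fewer than 20 UMIs in the injured library.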

Other observations

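Nuclei outside the 5 main classes held channel transcripts too. No neuron yardstick was set beside their values, so the part of RNA from neurons in them was not tested. In 616 ependymal-like nuclei, the ciliated cells that line the central canal, CACNA2D1 measured 356 CPM pooled over libraries, CACNA2D3 229 CPM, SCN8A 128 CPM, CACNA1C 114 CPM, CACNB4 114 CPM and SCN9A 77.7 CPM. In 2 unnamed clusters (1455 and 1380 nuclei) with GPNMB and ITGAX, genes of lipid-laden phagocytes, among their leading genes, CACNB4 measured 636 and 780 CPM. In the same nuclei CACNA1A measured 73.2 and 41.0 CPM and CACNA2D1 14.3 and 26.7 CPM. These clusters were left out of the microglia-like class because their markers were mixed.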
